A study of Mus musculus with 24 samples.

Results

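The brown fat thermogenic genes are 10 named genes with established roles in heat production by brown adipocytes: Ucp1, Otop1, Cidea, Ppargc1a, Dio2, Elovl3, Prdm16, Zic1, Kcnk3 and Cpt1b. They were taken by symbol from a table of 32561 genes, in which each occurred once, and 7 of the 10 reached the level needed to enter the test over 9933 genes. RNA was measured in 24 mouse aorta samples, 4 in each of 6 groups, to ask how renal failure, sex and a modified Bmp2 gene alter expression. All mice were congenic on the 129S1/SvlmJ strain and 44 to 53 days old. The groups were Bmp2+/+ males, Bmp2+/+ females and males homozygous for the Bmp2 allele named ∆UCS, each either Klotho Kl/Kl with renal disease or a control with healthy kidneys. Of the 12 controls, 11 were heterozygous for the Kl allele (+/Kl) and 1, a Bmp2+/+ male, was Klotho+/+. No ∆UCS females were among the 24 samples. The Klotho and Bmp2 alleles are present in the whole animal, and the samples are whole aortas with whatever tissue stayed attached. The labels do not say how much surrounding fat was kept.

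Brown fat burns fatty acids in mitochondria whose inner membrane is made leaky to protons by UCP1, so that the energy is released as heat. Noradrenaline from sympathetic nerves acts through β-adrenergic receptors and cyclic AMP to raise lipolysis and the transcription of Ucp1, Dio2 and Ppargc1a. The fat that surrounds the thoracic aorta of mice resembles brown fat, whereas Adipoq, the hormone adiponectin, is made by white and brown adipocytes alike and served as the reference transcript of fat in general.

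The sequences upstream of the start sites show which letters of known promoter elements lie beside the members that the results turn on. RefSeq promoters on GRCm38.p6, an older build than the mm39 of the expression table, were matched for 6 of the 10 members and for Adipoq. The 250 bases before the start are given for Ucp1, Otop1, Dio2 and Adipoq, with matches to the searched motifs in capitals.
Ucp1 (chr8:83290098-83290347, plus strand): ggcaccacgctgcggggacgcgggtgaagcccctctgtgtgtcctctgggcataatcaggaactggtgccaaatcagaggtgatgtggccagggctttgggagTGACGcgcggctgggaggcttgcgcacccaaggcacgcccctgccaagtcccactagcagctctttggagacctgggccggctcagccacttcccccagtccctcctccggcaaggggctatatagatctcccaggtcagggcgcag
Otop1 (chr5:38277154-38277403, plus strand): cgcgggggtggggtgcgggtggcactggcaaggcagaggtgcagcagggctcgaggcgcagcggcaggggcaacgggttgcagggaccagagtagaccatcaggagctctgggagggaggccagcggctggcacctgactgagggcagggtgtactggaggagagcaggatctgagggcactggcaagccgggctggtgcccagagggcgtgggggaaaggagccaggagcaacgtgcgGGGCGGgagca
Dio2 (chr12:90739039-90739288, minus strand): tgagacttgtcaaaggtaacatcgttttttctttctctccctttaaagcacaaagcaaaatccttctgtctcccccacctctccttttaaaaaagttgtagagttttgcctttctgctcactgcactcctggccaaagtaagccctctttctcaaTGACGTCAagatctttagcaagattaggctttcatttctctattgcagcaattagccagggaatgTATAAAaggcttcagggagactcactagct
Adipoq (chr16:23146286-23146535, plus strand): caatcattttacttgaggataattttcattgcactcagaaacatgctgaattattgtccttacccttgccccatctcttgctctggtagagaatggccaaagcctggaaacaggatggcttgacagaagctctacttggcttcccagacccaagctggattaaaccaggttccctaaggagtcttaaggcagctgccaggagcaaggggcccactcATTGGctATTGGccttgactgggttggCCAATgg
Motifs were searched on both strands. The short form of the cyclic AMP response element, TGACG, began 147 bases upstream in Ucp1, and 17.8% of 32851 promoters of the same length held it. Dio2 held the full element TGACGTCA, which contains the short form on both strands, 95 bases upstream, a sequence found in 1.55% of promoters. It also held a TATA box, TATAAA, 30 bases upstream, as did 12.4% of promoters. Otop1 had only a GC box, GGGCGG, 11 bases upstream (32.7% of promoters). Adipoq had CCAAT at 34, 27 and 7 bases upstream (33.8% of promoters), the first pair on the minus strand. The peroxisome proliferator element, a direct repeat of AGGTCA with 1 base between the copies (0.0335% of promoters), and the estrogen-related receptor element TCAAGGTCA (0.387%) had no match in the windows of the 6 members. These matches describe the letters of the windows and are not measured binding sites.

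Levels are in TPM as deposited, a depth-scaled and length-scaled unit of transcript abundance, here divided by the whole genomic span of a gene, so that they compare libraries and not genes with each other. A summed TPM of a marker list, as given below, mostly follows the genes of highest TPM on that list. Estimated depth was 20593000 to 61108000 reads per library, and mitochondrially encoded genes took 40.2% to 61.2% of the summed TPM. Without the 2 libraries left out below, this share was 47.3% to 58.6% in Bmp2+/+ male controls and 40.2% to 55.8% in their Kl/Kl. In females it was 52.2% to 60.0% against 44.9% to 54.8%. In ∆UCS males it was 53.5% to 61.2% against 40.9% to 52.5%, without overlap. Its part in the levels of the other genes was not tested. None of the 6 smooth muscle markers and 8 adipocyte markers was without reads in all libraries of a group. The Klotho transcript itself was close to absent from aorta, with 3 to 30 estimated reads in controls and 0 to 17 in Kl/Kl libraries, so it does not check the labels. In 2 of the 24 libraries, replicate 1 of the Bmp2+/+ male Kl/Kl group and replicate 2 of the female Kl/Kl group, the sex-linked transcripts went against the labelled sex. There Spp1 (osteopontin, a secreted phosphoprotein of mineralized and inflamed tissue) stood at 0.459 and 0.347 TPM, against 35.3 to 286 in the other Kl/Kl libraries and 0.199 to 5.54 in controls. The main comparisons leave both out, and the counts of members called are also given with all 24 libraries as labelled.

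All 7 tested members had lower estimates in Kl/Kl than in control aortas in Bmp2+/+ males, Bmp2+/+ females and ∆UCS males. Their median log2 difference was −0.96, −1.20 and −0.81 in these 3 strata, beside 0.09, 0.29 and 0.26 over all 9933 genes. One of the 7 passed the threshold of an adjusted p under 0.05 in Bmp2+/+ males, Otop1, and 0 of 7 did in females and in ∆UCS males. Over all genes, the share called lower was 0.0604% in Bmp2+/+ males, 0.0201% in females, and 0.111% for ∆UCS males, and the share called higher was 1.04%, 2.58% and 0.534%. At an unadjusted p under 0.05, 4, 5 and 3 of the 7 members were lower, beside 2.39%, 1.85% and 2.96% of all genes. Fewer brown adipocytes and less of these RNAs per cell cannot be told apart in whole aortas. When all 24 libraries were used as labelled, 0 of 7 members and 0 genes of 9933 (0.0%) were called in any of the 3 strata, with 603, 1498 and 1628 genes under an unadjusted p of 0.05, and the members' medians were −0.69, −0.87 and −0.81. These p-values come from limma on log2(TPM + 1) with Benjamini-Hochberg adjustment over all genes, two-sided, and a difference on that scale understates the change of genes of low TPM.

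**Figure D1:**
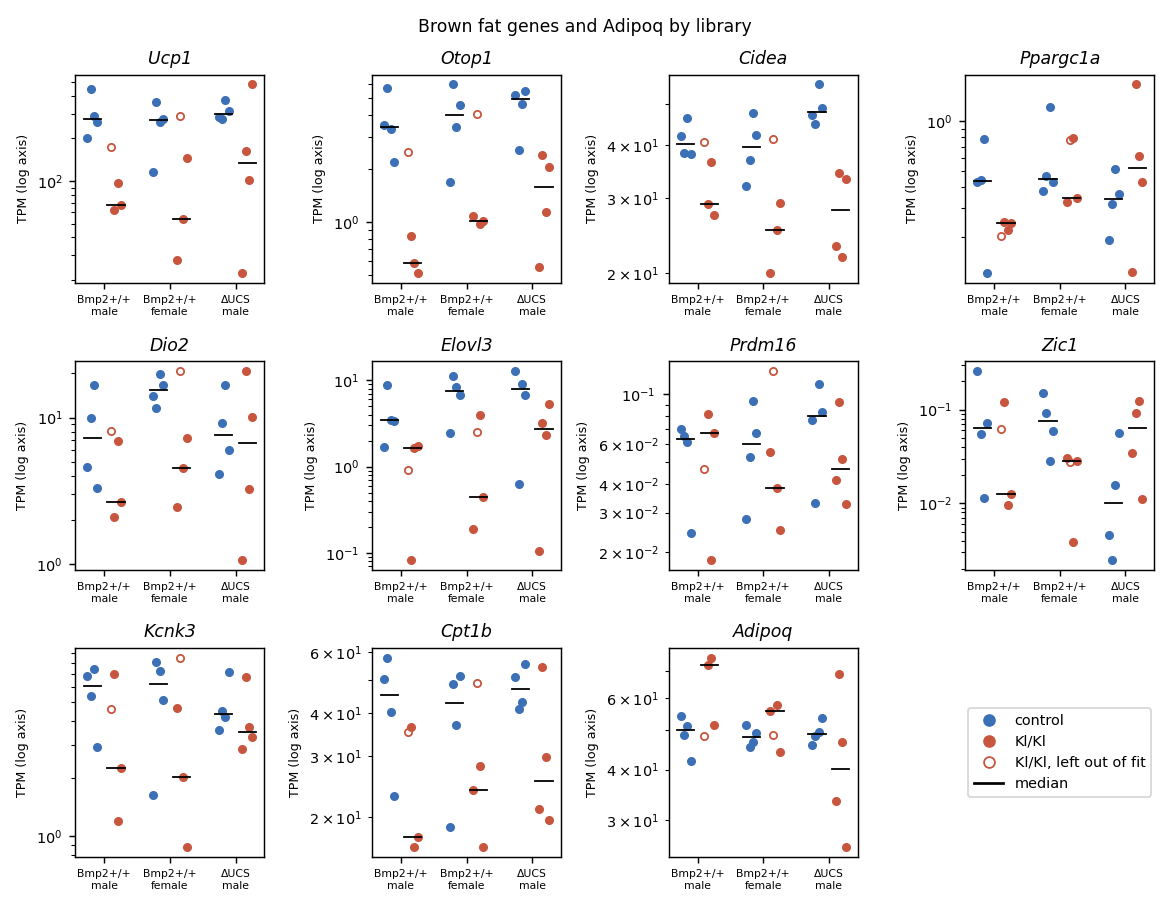
TPM of the 10 members and Adipoq in each library (log axis, 1 panel per gene), by Bmp2 genotype and sex; blue points are controls, red points Kl/Kl, open circles the 2 libraries left out, and lines the medians of the rest. Otop1 of the filled Kl/Kl points lies below every control of its stratum in all 3 strata, and the open circles of Otop1 and Cidea lie within the control ranges.

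Ucp1, the uncoupling protein that gives brown fat its heat, was abundant in every aorta, with 5327 to 182135 estimated reads. In Bmp2+/+ males the controls had 201, 451, 287 and 263 TPM and the Kl/Kl libraries 62.4, 97.3 and 67.3 TPM. The ranges did not overlap, and the Kl/Kl median was 0.245 times that of the controls. In females the controls had 115, 362, 262 and 275 TPM and the Kl/Kl libraries 27.6, 53.5 and 145 TPM, which overlapped because 1 Kl/Kl library exceeded the lowest control. In ∆UCS males the controls had 286, 273, 372 and 313 TPM. The ∆UCS Kl/Kl libraries had 22.2, 164, 102 and 486 TPM, so that 3 lay below every control and the fourth, replicate 4, lay above every control of its stratum. The difference in Ucp1 was −1.90 (SE 0.72, adjusted p = 0.301) in Bmp2+/+ males, −1.95 (SE 0.71, adjusted p = 0.127) in females, and −1.39 (SE 0.65, adjusted p = 0.289) for ∆UCS males by limma, none past the threshold. The 2 libraries left out had 173 TPM (male) and 288 TPM (female), and with them the differences were −1.64 (adjusted p = 0.785) and −1.39 (adjusted p = 0.333).

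Otop1 encodes otopetrin 1, a proton channel of brown adipocytes and of sour taste cells. Its levels in Bmp2+/+ males were 3.53, 5.73, 3.35 and 2.17 TPM in controls and 0.830, 0.589 and 0.513 TPM in Kl/Kl. In females they were 1.67, 6.01, 3.42 and 4.57 TPM in controls and 1.07, 0.972 and 1.01 TPM in Kl/Kl. In ∆UCS males they were 5.21, 2.54, 4.65 and 5.49 TPM in controls and 0.559, 2.37, 1.13 and 2.03 TPM in Kl/Kl. In the 22 libraries kept, every Kl/Kl library was below every control of its stratum. The Kl/Kl medians there were 0.171, 0.254 and 0.321 times the control medians. Otop1 fell by 1.47 on the log2(TPM + 1) scale in Bmp2+/+ males (SE 0.33, adjusted p = 0.0306, limma). In females the difference was −1.20 (SE 0.32, adjusted p = 0.0551) and in ∆UCS males −1.14 (SE 0.30, adjusted p = 0.0722), both short of the threshold. The difference between females and males in the Klotho effect was 0.27 (SE 0.46, adjusted p = 0.988) and that between ∆UCS and Bmp2+/+ males 0.33 (SE 0.44, adjusted p = 0.956) in the same limma fit.

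The call for Otop1 differed with the libraries kept and with the scaling. The library labelled Kl/Kl that was left out of the Bmp2+/+ males had 2.49 TPM and the female one 4.07 TPM, both within the range of the controls. With them in the limma fit the differences were −1.19 (adjusted p = 0.589) in Bmp2+/+ males and −0.87 (adjusted p = 0.325) in females, and the ∆UCS value was −1.14 (adjusted p = 0.156). In Bmp2+/+ males the call was also lost without control replicate 1 (limma, adjusted p = 0.0684), 2 (0.103) or 3 (0.0762) and without Kl/Kl replicate 2 (0.0668) or 4 (0.598), and held without control replicate 4 or Kl/Kl replicate 3. With median-of-ratios scaling, which divides each library by its median ratio to the average library and set the median of all genes to −0.02, −0.02 and 0.02, Otop1 fell in all 3 strata, by 1.52 (adjusted p = 0.0237), 1.5 (adjusted p = 0.0173) and 1.33 (adjusted p = 0.0408). With that scaling and all 24 libraries all 3 calls were lost (−1.26, −1.14 and −1.33, adjusted p = 0.470, 0.297 and 0.153). In the 22 libraries it was the 1 member of 7 called in each under that scaling, beside 0.252%, 1.54% and 0.564% of all genes called lower. The library names fall in 2 sets that differ in spelling, and Bmp2+/+ males occur in both. Within set 1 the Otop1 difference in Bmp2+/+ males was −1.38 (SE 0.39, adjusted p = 0.860) and within set 2, where 1 Kl/Kl library is left and is assumed to vary like the other groups, −1.61 (SE 0.55, adjusted p = 0.126), by limma. Females were all in set 2 and ∆UCS males all in set 1. Over the 19, 17 and 18 settings run in the 3 strata the difference in Otop1 ranged from −2.65 to −1.19 in Bmp2+/+ males, −2.37 to −0.87 in females, and −2.11 to −0.93 for ∆UCS males. Its adjusted p ranged from 0.0134 to 0.860, 0.0118 to 0.325 and 0.0408 to 0.309 over these settings.

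**Figure D2:**
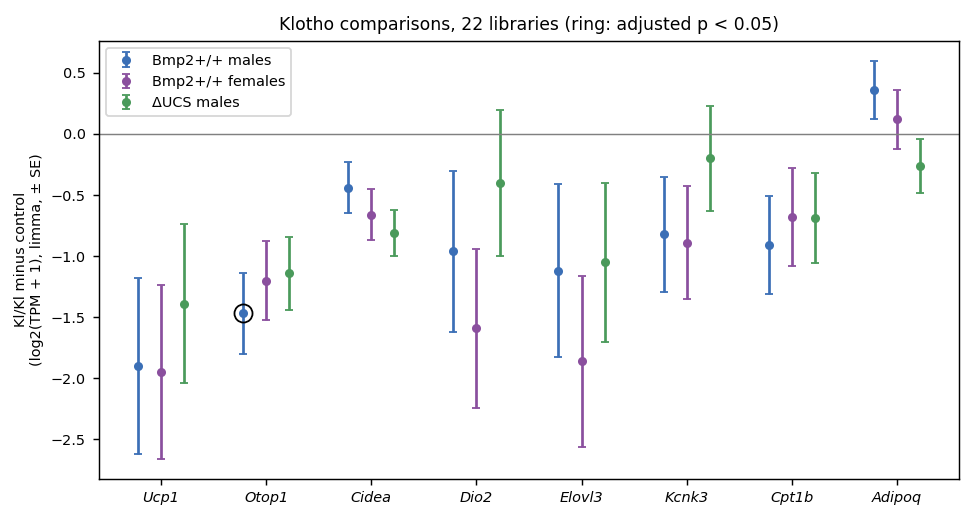
Kl/Kl minus control in log2(TPM + 1) for the 7 tested members and Adipoq, 22 libraries; points are limma estimates, bars 1 SE, colours the 3 strata, and the ring marks an adjusted p under 0.05. All points of the members lie below 0, from −1.95 (Ucp1, females) to −0.20 (Kcnk3, ∆UCS males), and those of Adipoq lie between −0.26 and 0.36.

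Cidea encodes a protein of the lipid droplet surface that promotes droplet fusion and is more abundant in brown than in white fat. Bmp2+/+ male controls had 42.1, 38.4, 46.5 and 38.2 TPM and their Kl/Kl counterparts 29.1, 36.7 and 27.5 TPM. Female controls had 32.2, 36.9, 47.8 and 42.4 TPM and female Kl/Kl 20.0, 25.3 and 29.3 TPM. ∆UCS controls had 47.2, 44.8, 55.9 and 49.0 TPM and ∆UCS Kl/Kl 23.1, 34.5, 21.8 and 33.3 TPM. The groups did not overlap in any stratum, and the spread within groups was narrow, with a coefficient of variation of 9.48% to 23.6%. The difference was −0.44 (SE 0.21, adjusted p = 0.448), −0.66 (SE 0.21, adjusted p = 0.0858) and −0.81 (SE 0.19, adjusted p = 0.0618) by limma, none past the threshold. The libraries left out had 40.7 TPM (male) and 41.3 TPM (female), inside the control ranges, and with them the groups overlapped in Bmp2+/+ males and in females. With median-of-ratios scaling the Cidea ranges overlapped in both male strata and not in females.

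Among the 7 tested members, 3 did not overlap between groups and were lower in Kl/Kl in Bmp2+/+ males (Ucp1, Otop1 and Cidea), 3 in females (Otop1, Cidea and Dio2), and 2 for ∆UCS males (Otop1 and Cidea). Over all 9933 genes, 1.19%, 1.64% and 2.1% had such a separation. Using all 24 libraries, the counts were 1, 0 and 2 of 7, beside 0.282%, 0.503% and 2.1% of all genes. With median-of-ratios scaling of the 22 libraries they were 3, 3 and 2 of 7, beside 4.44%, 8.6% and 6.15% of all genes. Under that scaling Cpt1b was among them in both male strata and Cidea was not.

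Dio2 encodes the type 2 deiodinase, which makes active thyroid hormone inside brown adipocytes. Female controls had 14.1, 11.7, 19.8 and 16.6 TPM and female Kl/Kl 2.46, 4.56 and 7.22 TPM, without overlap. In Bmp2+/+ males the controls had 4.57, 9.86, 16.7 and 3.28 TPM and Kl/Kl 2.10, 6.96 and 2.64 TPM. In ∆UCS males the controls had 4.10, 9.20, 16.6 and 6.02 TPM and Kl/Kl 1.07, 20.8, 3.28 and 10.1 TPM. The ranges overlapped in both male strata, and the highest value among ∆UCS libraries was a Kl/Kl one. The limma difference was −0.96 (SE 0.66, adjusted p = 0.618), −1.59 (SE 0.65, adjusted p = 0.151) and −0.40 (SE 0.60, adjusted p = 0.689) in Bmp2+/+ males, females and ∆UCS males. The library labelled female Kl/Kl that was left out had 20.8 TPM, above every female control, and with it the female difference was −1.09 (adjusted p = 0.358). Without ∆UCS Kl/Kl replicate 1 the ∆UCS estimate turned to 0.17.

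Elovl3 and Cpt1b handle fatty acids. ELOVL3 elongates very long chain fatty acids and is strongly induced in brown fat by cold, and CPT1B is the carnitine palmitoyltransferase of brown fat, heart and skeletal muscle that admits fatty acids to mitochondria. Elovl3 had the lowest read number of the tested members, with 9 to 2748 estimated reads per library. It ranged from 1.67 to 8.82 TPM in Bmp2+/+ male controls and from 0.0826 to 1.73 in Kl/Kl, from 2.47 to 11.3 in female controls and from 0.190 to 3.94 in Kl/Kl, and from 0.625 to 12.8 in ∆UCS controls and from 0.107 to 5.24 in Kl/Kl. The ranges overlapped in each stratum, and the limma differences of −1.12, −1.86 and −1.05 (SE 0.71, 0.70 and 0.65) had adjusted p-values of 0.595, 0.136 and 0.394. Cpt1b stood at 50.1, 57.8, 40.3 and 23.0 TPM in Bmp2+/+ male controls and at 36.5, 16.4 and 17.6 TPM in Kl/Kl. In females it ranged from 18.8 to 51.2 TPM in controls and from 16.4 to 28.1 TPM in Kl/Kl. In ∆UCS males it stood at 50.9, 41.0, 43.0 and 55.3 TPM in controls and 21.1, 54.5, 29.9 and 19.7 TPM in Kl/Kl. The ranges of Cpt1b overlapped in each stratum, and its differences were −0.91, −0.68 and −0.69 (SE 0.40, 0.40 and 0.37, adjusted p = 0.416, 0.286 and 0.337, limma). With median-of-ratios scaling its Kl/Kl values lay below every control in Bmp2+/+ males and in ∆UCS males, as did those of 4.44% and 6.15% of all genes. The summed TPM of 8 skeletal muscle markers ran from 5.95 to 758 in controls and from 9.85 to 493 in Kl/Kl, and that of 7 atrial muscle markers from 31.2 to 1467 and from 95.2 to 4103. None of these markers was without reads in all libraries of a group, and 0 of 8 and 0 of 7 passed the threshold in any stratum. Their part in the Cpt1b values was not tested.

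Kcnk3 encodes TASK-1, a potassium leak channel of brown adipocytes that is also present in vascular and atrial muscle. It ranged from 2.91 to 7.47 TPM in Bmp2+/+ male controls and from 1.20 to 7.01 in Kl/Kl, from 1.64 to 8.15 in female controls and from 0.876 to 4.64 in Kl/Kl, and from 3.58 to 7.18 in ∆UCS controls and from 2.86 to 6.80 in Kl/Kl. Each pair of ranges overlapped. The limma differences were −0.82 (SE 0.47, adjusted p = 0.540), −0.89 (SE 0.46, adjusted p = 0.229) and −0.20 (SE 0.43, adjusted p = 0.781). With limma voom on estimated reads, which tested 22298 genes and all 10 members, Kcnk3 fell by 1.82 in females (adjusted p = 0.0468) beside Otop1, the 2 members called there beside 1.2% of all genes called lower. The summed TPM of 6 smooth muscle markers ran from 74.3 to 429 in controls and from 115 to 627 in Kl/Kl. None of these markers was without reads in all libraries of a group, and their part in the Kcnk3 values was not tested.

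The transcriptional regulators among the members did not enter the test over all genes, having a TPM of at least 1 in fewer than 4 libraries on a scale divided by genomic span. Ppargc1a, the coactivator PGC-1α that drives mitochondrial biogenesis, had 417 to 6021 estimated reads spread over its long gene and ranged from 0.122 to 1.21 TPM in controls and from 0.124 to 1.67 TPM in Kl/Kl. Its highest value was in ∆UCS Kl/Kl replicate 2. Prdm16, a zinc finger protein that commits precursors to the brown fate, had 239 to 1475 estimated reads over a span of 320749 bases and ranged from 0.0243 to 0.111 TPM in controls and from 0.0185 to 0.0920 TPM in Kl/Kl. Zic1, a marker of classical interscapular brown fat, had only 1 to 63 estimated reads per library, from 0.00247 to 0.260 TPM in controls and 0.00383 to 0.125 TPM in Kl/Kl. In each of the 3 strata the ranges of all 3 genes overlapped as deposited, and with median-of-ratios scaling those of Zic1 in females did not. Exact permutation tests of log2 TPM (two-sided, not adjusted, smallest possible p 0.0286) gave p = 0.457, 0.600 and 0.514 for Ppargc1a and 0.743, 0.314 and 0.400 for Prdm16. For Zic1 the exact permutation tests gave p = 0.457, 0.114 and 0.143, with estimates of −1.26, −2.22 and 2.21 that differ in sign between the strata.

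**Figure D3:**
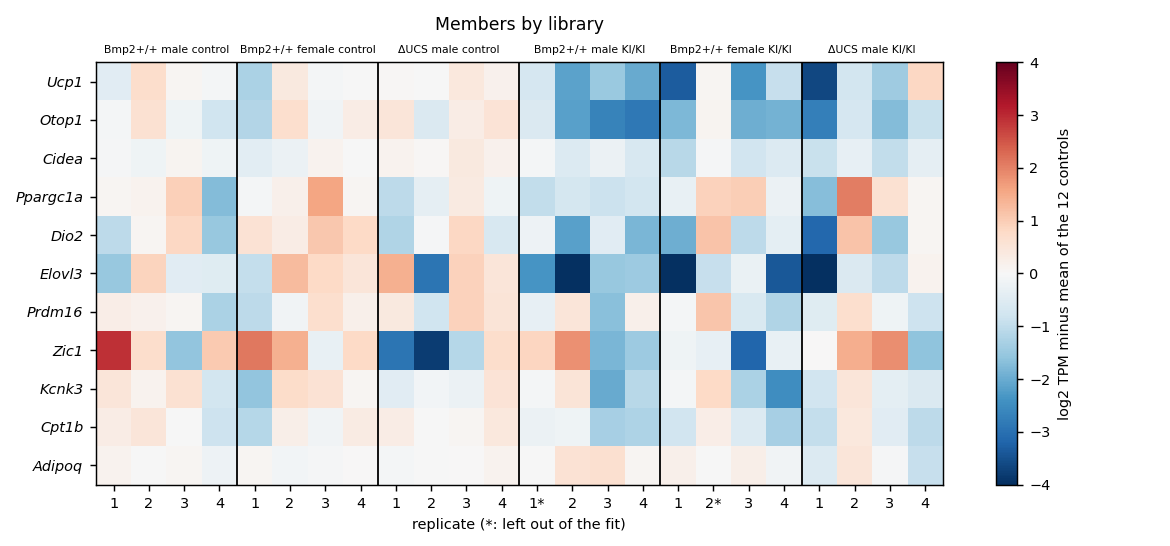
Log2 TPM of each member and Adipoq minus its mean over the 12 controls, 1 column per library by group and replicate; blue is lower, red higher, colours end at ±4 and an asterisk marks the 2 libraries left out. The lines for Ucp1 and Otop1 are mostly blue in Kl/Kl columns other than those with an asterisk, and Cidea is pale blue there. Zic1 is mixed, and Adipoq is pale with both colours.

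Adipoq, the general adipocyte reference, had estimates of both signs and was called in 0 of the 3 strata. Bmp2+/+ male controls had 54.2, 48.5, 51.3 and 42.1 TPM and Kl/Kl 72.5, 75.4 and 51.4 TPM. Female controls had 51.4, 45.5, 46.9 and 49.2 TPM and Kl/Kl 55.8, 57.8 and 44.3 TPM. ∆UCS controls had 46.0, 48.5, 49.4 and 53.7 TPM and Kl/Kl 33.5, 68.8, 46.8 and 25.8 TPM. All 3 pairs of ranges overlapped, and the limma differences were 0.36 (SE 0.24, adjusted p = 0.617), 0.12 (SE 0.24, adjusted p = 0.774) and −0.26 (SE 0.22, adjusted p = 0.499). The female estimate changed sign to −0.37 with median-of-ratios scaling and to −0.43 with voom. Under median-of-ratios scaling all 3 female Kl/Kl libraries lay below every control for Adipoq, as for 8.6% of all genes, and 3 of 4 ∆UCS Kl/Kl libraries did. The summed TPM of 8 general adipocyte markers ran from 2024 to 2719 in controls and from 1612 to 3814 in Kl/Kl, with 0 of 8 past the threshold in any stratum and medians of 0.19, 0.06 and −0.17. Within that list Plin1, perilipin 1 of the lipid droplet, was singled out after its values were seen, with differences of −1.69, −1.08 and −0.96 (limma, adjusted p = 0.343, 0.306 and 0.407).

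Each member was next compared with Adipoq of the same library, which removes the library scaling apart from the pseudocount. The Adipoq-relative estimate was below 0 for 7, 7 and 6 of the 7 members in Bmp2+/+ males, females and ∆UCS males, with medians of −1.32, −1.31 and −0.54, beside −0.27, 0.18 and 0.52 over all genes. Otop1 was the 1 member called, in Bmp2+/+ males (−1.83, SE 0.36, adjusted p = 0.0197, limma), beside 0.0302% of all genes called lower. For Otop1 the value was −1.31 (SE 0.35, adjusted p = 0.0791) in females, and −0.88 (SE 0.33, adjusted p = 0.0981) for ∆UCS males. For Ucp1 it was −2.26 (SE 0.75, adjusted p = 0.266), −2.06 (SE 0.74, adjusted p = 0.282) and −1.13 (SE 0.68, adjusted p = 0.187). For Cidea it was −0.80 (adjusted p = 0.389), −0.78 (adjusted p = 0.399) and −0.54 (adjusted p = 0.158), and for Cpt1b −1.27 (adjusted p = 0.202), −0.79 (adjusted p = 0.472) and −0.43 (adjusted p = 0.285). The share of all genes called lower against Adipoq was 0.0201% in females, and 0.0101% for ∆UCS males, where 0 of 7 members were called. With all 24 libraries 0 of 7 members were called against Adipoq in the 3 strata, and Otop1 stood at −1.5 (adjusted p = 0.716), −0.96 (adjusted p = 0.673) and −0.88 (adjusted p = 0.105). Without control replicate 1, 2 or 3 or Kl/Kl replicate 4 of the Bmp2+/+ males, 0 members were called there.

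**Figure D4:**
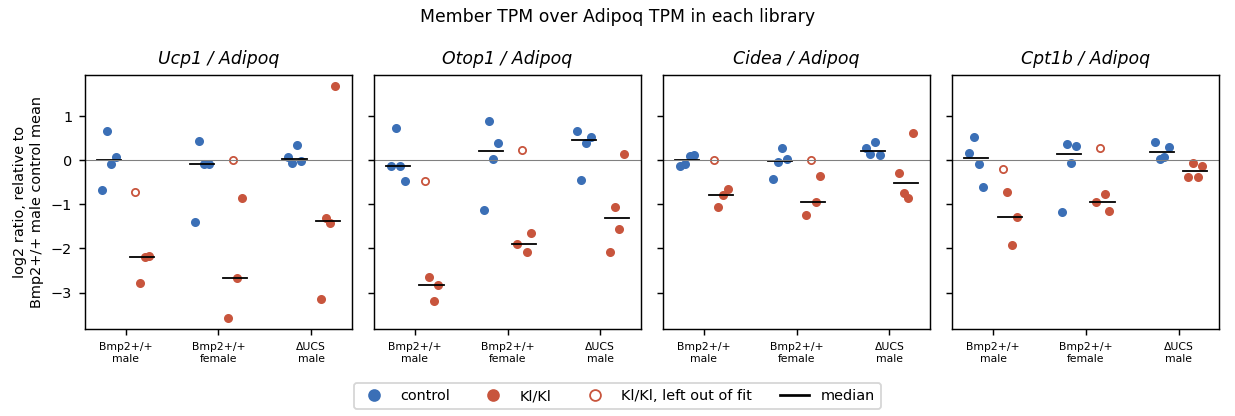
Log2 ratio of Ucp1, Otop1, Cidea and Cpt1b TPM to Adipoq TPM in each library, relative to the mean of the Bmp2+/+ male controls; blue points are controls, red points Kl/Kl, open circles the 2 libraries left out, and lines medians of the rest. Otop1 ratios of Bmp2+/+ male Kl/Kl lie between −3.19 and −2.64, below their controls (−0.47 to 0.73), and ∆UCS Kl/Kl replicate 4 is at 1.68 for Ucp1.

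The TPM ratios show the same libraries one by one. Relative to the Bmp2+/+ male control mean, the log2 Otop1 to Adipoq ratio was −3.19 to −2.64 in Bmp2+/+ male Kl/Kl and −0.47 to 0.73 in their controls. In females it was −2.09 to −1.64 against −1.13 to 0.89, again without overlap. In ∆UCS males it was −2.09 to 0.14 against −0.45 to 0.67, with overlap. The Ucp1 ratio separated the groups in Bmp2+/+ males (−2.78 to −2.17 against −0.67 to 0.66) and the Dio2 ratio in females (−1.71 to 0.18 against 0.83 to 1.55). The Cidea ratio separated the groups in Bmp2+/+ males (−1.07 to −0.66 against −0.12 to 0.11), and the Cpt1b ratio did so in Bmp2+/+ males (−1.93 to −0.72 against −0.60 to 0.52) and in ∆UCS males (−0.39 to −0.07 against 0.03 to 0.41). The ratio was thus lower in Kl/Kl without overlap for 4, 2 and 1 of the 7 members in the 3 strata, beside 5.76%, 1.4% and 0.463% of all genes. Of 20 correlations between a member and Adipoq in log2 TPM, over the 12 controls or the 10 Kl/Kl libraries, 0 had an adjusted p under 0.05 (permutation tests, adjusted p 0.809 to 0.856). For Ucp1, Pearson's r was −0.28 (p = 0.381, permutation) and Spearman's rho −0.13 (p = 0.699) over controls and −0.27 (p = 0.456) and −0.15 (p = 0.685) over Kl/Kl. Without the 2 libraries farthest from the median Adipoq these r were −0.30 and −0.04, and within library set 1 they were −0.36 and −0.21.

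The genes whose log2(TPM + 1) followed Ucp1 most closely over the 22 libraries were Agpat2 (Pearson's r = 0.933), Mpc2 (0.876), Prelid3b (0.860), Clstn3 (0.844) and Dnajc15 (0.843). Agpat2 makes phosphatidic acid for triglyceride synthesis and Mpc2 is a subunit of the mitochondrial pyruvate carrier. Agpat2 ranged from 17.9 to 71.1 TPM in controls and from 3.38 to 38.2 TPM in Kl/Kl. Among the members, r with Ucp1 was 0.823 for Otop1, 0.814 for Cidea, 0.743 for Elovl3, 0.679 for Dio2, 0.527 for Cpt1b and 0.362 for Kcnk3, and it was −0.251 for Adipoq. These values describe libraries that share group differences and scaling, and genes of one library are not independent.

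A wider list of 72 genes of brown fat thermogenesis other than the members was chosen with earlier results of these data known. It had 8 subgroups and 53 genes in the test. Their median difference was −0.49, −0.48 and −0.38 in Bmp2+/+ males, females and ∆UCS males, beside the all-gene medians of 0.09, 0.29 and 0.26. In that order 0, 0 and 2 were called lower and 0 higher, and 20, 18 and 19 were lower and 3, 2 and 3 higher at an unadjusted p under 0.05, beside the all-gene shares given above for the members (0.0604%, 0.0201% and 0.111% called lower, 2.39%, 1.85% and 2.96% lower unadjusted). In either direction, 11%, 24.8% and 16.8% of all genes had an unadjusted p under 0.05. The 2 called in ∆UCS males were Acot11, an acyl-CoA thioesterase of brown fat (−1.34, SE 0.30, adjusted p = 0.0460), and P2rx5, a purinergic receptor on brown adipocytes (−1.15, SE 0.21, adjusted p = 0.0105), both by limma. In the 24 libraries as labelled 0 of 53 were called in any stratum. With median-of-ratios scaling 1, 12 and 5 of the 53 were called lower and 0 higher, beside 0.252%, 1.54% and 0.564% of all genes called lower.

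By subgroup, the median limma differences were −0.65, −0.43 and −0.35 for 8 tested genes of adrenergic input and −0.17, −0.04 and −0.18 for 7 transcription regulators. They were −0.53, −0.56 and −0.64 for 21 genes of fatty acid supply and oxidation and −1.25, −0.79 and −0.61 for 5 mitochondrial proteins. The 3 glucose and glycerol genes had −0.74, −0.76 and −0.36, and the 5 creatine and calcium cycling genes 0.26, 0.69 and 0.60. Medians are not given here for the secreted factors and for the beige and membrane markers, the list that holds P2rx5. Adrb3, the β3-adrenergic receptor of adipocytes, was singled out after its values were seen. It ranged from 1.77 to 6.19 TPM in controls and 0.463 to 3.22 TPM in Kl/Kl, with limma differences of −1.23 (adjusted p = 0.190), −1.03 (adjusted p = 0.136) and −1.51 (adjusted p = 0.0620). Of the 8 tested genes of adrenergic input, 4, 3 and 2 were lower and 1, 1 and 1 higher at an unadjusted p under 0.05. Among all genes 2.39%, 1.85% and 2.96% were lower at that level, and 11%, 24.8% and 16.8% differed in either direction. None of the 8 was called. Of 4 tested genes of sympathetic neurons and Schwann cells 0 were called, with medians of −0.08, −0.17 and 0.08. The summed TPM of all 6 genes on that list, tested or not, ran from 1.37 to 14.3 in controls and from 2.98 to 11.5 in Kl/Kl.

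Markers of another cell type moved with Klotho status beside these genes. The summed TPM of 8 macrophage markers was 31.7 to 189 in controls and 237 to 651 in Kl/Kl, without overlap. Of 6 tested markers, 3, 4 and 3 were called higher in the 3 strata, beside 1.04%, 2.58% and 0.534% of all genes. Lyz2, lysozyme of myeloid cells, rose by 2.53 (adjusted p = 0.00469), 3.62 (adjusted p = 4.27e-05) and 2.41 (adjusted p = 0.00529) by limma. The summed TPM of 5 airway epithelium markers was 6.30 to 1815 in controls and 524 to 3426 in Kl/Kl, with overlap. Reg3g and Scgb3a1 of that list rose in females and ∆UCS males, where 2.58% and 0.534% of all genes were called higher. None of these markers was without reads in all libraries of a group. Their part in the levels of the brown fat genes was not tested.

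The ∆UCS allele was compared with Bmp2+/+ in males of each Klotho status. In controls 0 of 7 members and 0 of 9933 genes were called (0.0% lower, 0.0% higher, 216 genes under an unadjusted p of 0.05), and in Kl/Kl males likewise 0 and 0 (180 genes). With voom on estimated reads, 0 of 22298 genes were called in either, with 1373 and 681 under an unadjusted p of 0.05. In controls the limma difference (∆UCS minus Bmp2+/+) was 0.21 (SE 0.74, adjusted p = 0.964) for Ucp1, 0.22 (SE 0.34, adjusted p = 0.959) for Otop1 and 0.14 (SE 0.22, adjusted p = 0.959) for Cidea. In Kl/Kl males it was 0.72 (SE 0.74) for Ucp1, 0.55 (SE 0.34) for Otop1 and −0.23 (SE 0.22) for Cidea, each with an adjusted p of 1.00. These values do not show that the genotypes were alike. All ∆UCS libraries were in library set 1, which holds 2 of the 4 libraries of each Bmp2+/+ male group, and within that set alone Otop1 differed by 0.50 (SE 0.34, adjusted p = 1.00) in Kl/Kl males. No difference between genotypes in the Klotho effect was called for any member (0 of 7, 0 of 9933 genes, 205 under an unadjusted p of 0.05). On all 24 libraries 0 of 7 members were called in the same 3 comparisons.

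Relative to Adipoq, Otop1 (1.33, SE 0.37, adjusted p = 0.0477) and Cpt1b (1.03, SE 0.38, adjusted p = 0.0487) were called higher in ∆UCS than in Bmp2+/+ Kl/Kl males by limma. In this comparison 29.1% of all genes were called higher, so 2 of 7 members is near the background. Adipoq itself was 33.5, 68.8, 46.8 and 25.8 TPM in ∆UCS Kl/Kl and 72.5, 75.4 and 51.4 TPM in Bmp2+/+ Kl/Kl. With all 24 libraries, where 36.8% of genes were called higher, Otop1 was called (1.16, adjusted p = 0.0469) and Cpt1b was not (0.89, adjusted p = 0.0747). With voom, the pseudocount of 0.1 or a replicate block 0 members were called, and likewise 0 when Bmp2+/+ Kl/Kl replicate 3 or ∆UCS Kl/Kl replicate 1 or 4 was left out. In control males 0 of 7 members were called against Adipoq (0.0% of genes lower, 0.0% higher, 111 genes under an unadjusted p of 0.05).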

How the data were processed

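Aortas were flash frozen, and polyA RNA from a miRNeasy extraction went into strand-marking libraries, per the labels' protocols. The authors deposited TPM per gene; the submitters' processing notes name Partek and mm39. Not given in the sources used here are the aligner, the annotation release, the use of strand and how reads shared by near-identical or overlapping genes were counted. Each deposited TPM column sums to 482073, with a small constant in place of 0. Reads were estimated from the lowest TPM of each library, taken as 0.0001 read. Of values between 0.5 and 20 estimated reads, 73.2% lay within 0.05 of a whole number, so reads served only an alternative. No column of per-sample values was unused.

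The 9933 genes that reached 1 TPM in 4 or more of the 24 libraries were tested on log2(TPM + 1) with limma 3.58.1 (lmFit, eBayes with trend) in R 4.3.3. Its terms were 6 group means and the library set, read from the spelling of the library names. P-values were Benjamini-Hochberg adjusted over all genes (threshold 0.05, two-sided), and a called gene is one past it. Against Adipoq, its log2(TPM + 1) was subtracted from that of every gene before the same fit. The fit left out 2 libraries whose Xist and Ddx3y levels went against the labelled sex. Members below the filter had exact permutation tests, and correlations used 100000 permutations (scipy 1.17.1). The labels give replicate numbers but do not say that replicates are separate animals, so p-values measure the spread between these samples. Alternatives were all 24 libraries, median-of-ratios scaling, a pseudocount of 0.1, no filter, limma voom on estimated reads (22298 genes reaching 10 reads in 4 or more libraries, mitochondrial genes left out), no library set, a replicate block, single library sets and leaving out each replicate. Voom over all 24 libraries and library set 2 alone were chosen after seeing the data. On simulated data with known changes the code was tested first. Named genes were the members, Adipoq, the 5 genes most correlated with Ucp1, and up to 4 called genes of each list. The members and lists were chosen with earlier results of these data known.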

Additional observations from a re-analysis of the deposited data

Results flagged for a closer look

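In 66 groups of 4 libraries, counting 11 genes in 6 groups as labelled, 4 held a library whose gap to its nearest neighbour as a share of the range was above Dixon's critical value. Chance flags about 1 in 20 such groups. Otop1 at 2.49 TPM in replicate 1 of the Bmp2+/+ male Kl/Kl group and at 4.07 TPM in replicate 2 of the female Kl/Kl group stood above the rest of their groups. These are the 2 libraries whose sex-linked transcripts went against their labels. Ppargc1a stood high at 1.21 TPM in female control replicate 3. Zic1 stood low at 0.00383 TPM in female Kl/Kl replicate 3, a level of few reads.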

How the results depend on the processing

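With all 24 libraries as labelled, members called were 0 in Bmp2+/+ males, and 0 against Adipoq there; genes called were 0, 0 and 0 in Bmp2+/+ males, females and ∆UCS males. With all 24 and median-of-ratios scaling, members called in Bmp2+/+ males were 0 and genes called 0, 0 and 1; with all 24 and voom, 0 members, by level and against Adipoq, and 0, 0 and 0 genes. Median-of-ratios scaling gave 1 member in females and 1 in ∆UCS males, with 173 and 126 genes called in Bmp2+/+ and ∆UCS males (109 and 64 in the 22 libraries as deposited). It called 223 genes higher and 153 lower in females, against 256 and 2 as deposited, and 70 and 56 in ∆UCS males, against 53 and 11. Voom gave 2 members in females, 1 of them also against Adipoq, and 333, 722 and 270 genes. A pseudocount of 0.1 gave 1 member (Cidea) in ∆UCS males, beside 0.141% of all genes called lower. No filter gave 0 members in Bmp2+/+ males and 988 genes in females (258 with the filter). Without the library set, 1 member was called in females and 1 in ∆UCS males, and 99 genes in ∆UCS males. Set 1 alone gave 0 members and 13 genes in Bmp2+/+ males and 1 gene between Bmp2 genotypes in Kl/Kl males; set 2 alone gave 0 members. Between Bmp2 genotypes in Kl/Kl males, 2 members were called against Adipoq, 1 with all 24, 0 with all 24 and voom, 0 with the pseudocount of 0.1, 0 with voom, 0 with the replicate block and 9 of 10 with no filter, where 87.0% of all genes were called. The cause was not tested for any of these.

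Leaving out 1 replicate at a time gave 0 to 1, 0 to 2 and 0 to 1 members in Bmp2+/+ males, females and ∆UCS males. Against Adipoq it gave 0 to 1, 0 to 1 and 0 to 0 members, and 0 to 3 between Bmp2 genotypes in Kl/Kl males. The 3 of 7 stood beside 77.7% of all genes called when ∆UCS Kl/Kl replicate 2 was left out and 43.0% when Bmp2+/+ Kl/Kl replicate 2 was. Leaving out ∆UCS Kl/Kl replicate 2 also raised the genes called against Adipoq for Klotho status in ∆UCS males from 79 to 5384 (54.2%), with 0 of 7 members. Genes called ran from 36 (Kl/Kl replicate 4 left out) to 410 (Kl/Kl replicate 3), from 134 (Kl/Kl replicate 1) to 535 (control replicate 1) and from 38 (Kl/Kl replicate 3) to 159 (Kl/Kl replicate 4), and from 0 to 1 for the sex difference in the Klotho effect. Leaving out female control replicate 1 called Otop1 and Cidea, and leaving out ∆UCS Kl/Kl replicate 4 called Cidea.

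Signs turned for Adipoq in females (−0.37 with median-of-ratios scaling, −0.34 with that scaling and all 24, −0.43 with voom, −0.37 with voom and all 24). Leaving out 1 ∆UCS library moved Dio2 between −0.96 and 0.17 (Kl/Kl replicate 1), and Dio2 against Adipoq between −0.58 and 0.34 (Kl/Kl replicate 1), with 0.19 for control replicate 3 and 0.15 for Kl/Kl replicate 3. Kcnk3 against Adipoq there turned to −0.01 if control replicate 1 was left out and to −0.08 if Kl/Kl replicate 4 was. Ucp1 between Bmp2 genotypes in control males turned to −0.21 with the replicate block, and ranged from −0.05 (Bmp2+/+ control replicate 1 left out) to 0.30 with 1 library left out.

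With the replicate block, genes called were 95, 184 and 50 and members called 1, 0 and 0. The replicate number did not pair samples. Correlations of same-numbered deviations ran from −0.48 to 0.32, and 0 to 2 of the 6 or 8 samples of a comparison correlated best with their own number. Some control and Kl/Kl libraries share an age and have neighbouring numbers in their names under different replicate numbers. Such pairs were not tested and no fit used them. Depth limits Zic1 (1 to 63 reads) and Elovl3 (9 to 2748 reads).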
